A study of Homo sapiens with 10 samples.

Results

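The collagen prolyl 4-hydroxylases (P4HA1, P4HA2, P4HA3), the lysyl hydroxylases (PLOD1, PLOD2, PLOD3) and the lysyl oxidases (LOX, LOXL1, LOXL2, LOXL3) were followed across 10 culture conditions in human cell lines. These 10 genes, of 19775 represented on the arrays, were taken by name, and each was read from its probe set with the highest mean over the 10 arrays. A probe set counted only if the array annotation gave it 1 gene symbol, which left 20 probe sets for the 10 genes. One-colour Affymetrix arrays were hybridised with total RNA, 1 array for each condition, so no condition had a replicate. The cells were Hke3 and HCT116, both colorectal carcinoma lines, each in coculture with THP1 macrophages and vitamin D3, in coculture without vitamin D3, with vitamin D3 and no THP1 cells, and alone. THP1, a monocytic leukaemia line labelled as macrophages, was profiled with vitamin D3 and alone. Cocultured cells shared medium without touching, the colon cancer cells were grown in MEM and the THP1 cells in RPMI, both with serum, and vitamin D3 was given for 24 hours. Hke3 is a single clone derived from HCT116, so a difference between the lines is also a difference between a clone and its parent.

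Collagen chains are modified in the endoplasmic reticulum before they fold. The P4HA genes encode the catalytic alpha subunits of prolyl 4-hydroxylase, which pair with the P4HB subunit and make the hydroxyproline that holds the collagen triple helix together at body temperature. The PLOD enzymes hydroxylate lysines, PLOD2 those at the chain ends where cross-links form, and PLOD3 also adds sugars to hydroxylysine. Both kinds of hydroxylase use oxygen, iron, 2-oxoglutarate and ascorbate. LOX and its relatives are secreted copper enzymes that oxidise lysine in collagen and elastin, the step that starts cross-linking, and LOXL2 carries scavenger receptor domains and acts on the type IV collagen of basement membranes. Several of these genes, among them P4HA1, P4HA2, PLOD1, PLOD2, LOX and LOXL2, are known targets of hypoxia-inducible factors (HIF).

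Levels are the deposited log2 intensities, on which 1 unit is a doubling. The median of all values was 6.18 log2, and a gene was tested where at least 1 array of the fit exceeded it. Of the 10 genes, 9 passed over the 8 colon cancer arrays. LOX did not, with its highest colon cancer level at 5.02 log2 in HCT116 alone. Coculture, cell line and vitamin D3 were each tested with limma over the 8 colon cancer arrays, adjusted over 13243 genes by the Benjamini-Hochberg method with a threshold of 0.05. With no replicates, the error is the residual spread of the additive model, shared by its 3 differences, and takes in any departure from additivity. Values after ± are standard errors, moderated over genes by limma, of the fit that gave the difference. Differences within 1 line and interactions came from fits with an interaction term added, and THP1 differences from the fit over all 10 arrays.

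The arrays matched their labelled cell types in part. EPCAM lay between 13.06 and 13.55 log2 in the colon cancer cells and at 4.77 and 4.56 in THP1, and the 14 macrophage markers measured had a median of 11.58 and 11.48 log2 in THP1 and of 5.39 to 5.69 in the colon cancer cells. KRT20, an intestinal keratin, was under 6.18 log2 on all colon cancer arrays, and VIL1, the brush border gene villin, was between 6.29 and 6.50 there and at 6.42 and 6.37 in THP1. CYP24A1, the vitamin D-induced 24-hydroxylase, was higher with vitamin D3 by 5.88 log2 in THP1, by 1.45 in Hke3 and by 1.44 in HCT116 without coculture. In coculture it went against the vitamin D3 labels of both lines, at -1.36 log2 in Hke3 and -0.98 in HCT116. A mean over both cocultured arrays of a line does not depend on these labels, and each value below that is divided by vitamin D3 in coculture does. 1 label field of the Hke3 array with vitamin D3 calls the cells untreated, against its title, and it was kept as treated. The ACTB 3' minus 5' probe set difference, which is larger where RNA is more degraded, was 0.56 to 0.94 log2 in Hke3 and 0.16 to 0.30 in HCT116. For GAPDH it was -0.001 to 0.06 log2 in Hke3 and -0.10 on each HCT116 array.

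The stretches just upstream of 4 hydroxylase genes are shown because P4HA1, PLOD2 and PLOD1 rose with coculture and PLOD3, of the same family, did not pass the test. Each is the 250 bases before the gene's start, 5′ to 3′ on the gene's strand, from RefSeq (GRCh38.p14). Capitals mark ACGTG or GCGTG on either strand, the cores of the element that HIF binds.
P4HA1, chr10:73096867-73097116, minus strand: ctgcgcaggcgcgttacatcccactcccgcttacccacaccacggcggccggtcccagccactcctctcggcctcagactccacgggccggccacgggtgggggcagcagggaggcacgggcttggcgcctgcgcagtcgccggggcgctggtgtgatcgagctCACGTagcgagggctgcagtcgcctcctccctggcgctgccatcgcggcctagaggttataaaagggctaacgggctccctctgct
PLOD2, chr3:146161185-146161434, minus strand: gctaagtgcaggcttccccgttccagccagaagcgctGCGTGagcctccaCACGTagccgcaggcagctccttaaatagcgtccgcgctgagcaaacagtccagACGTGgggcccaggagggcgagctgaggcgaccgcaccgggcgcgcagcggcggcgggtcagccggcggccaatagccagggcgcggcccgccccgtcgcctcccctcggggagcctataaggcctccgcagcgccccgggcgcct
PLOD1, chr1:11934467-11934716, plus strand: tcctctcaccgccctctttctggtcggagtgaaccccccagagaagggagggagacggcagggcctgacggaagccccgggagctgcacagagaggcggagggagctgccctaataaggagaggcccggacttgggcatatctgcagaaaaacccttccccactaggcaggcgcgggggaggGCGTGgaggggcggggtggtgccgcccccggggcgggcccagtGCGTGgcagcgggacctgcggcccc
PLOD3, chr7:101217582-101217831, minus strand: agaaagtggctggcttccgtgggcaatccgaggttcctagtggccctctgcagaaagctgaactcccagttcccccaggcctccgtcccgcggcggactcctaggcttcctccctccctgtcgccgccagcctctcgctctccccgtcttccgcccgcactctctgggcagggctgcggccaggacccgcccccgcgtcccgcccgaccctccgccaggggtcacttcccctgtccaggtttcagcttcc
PLOD2 held 3 cores, PLOD1 held 2, P4HA1 held 1 and PLOD3 held none, and in none of them did 2 cores overlap in CACGTG. Of the 10 genes, 8 were searched: P4HA3 had no such stretch in the source, and the chromosome of LOXL2 was left out. Some had several starts, and 5 of the 8 held a core in at least 1 stretch. The other two holders did not pass for coculture or were not tested: LOX, which was not above the median, held up to 4 cores in a stretch, and LOXL3, which was lower in 4 of 4 pairs, held 1. Counted by stretch, 7 of 11 from these genes held a core, and some of the LOX stretches overlap. The LOXL3 stretch with a core, and the LOX stretches other than the one with 4 cores, lie downstream of another start of their gene. The counts include them. Of all 35116 stretches of this length, 43.2% held either core, 18.5% ACGTG and 32.2% GCGTG. P4HA2, which also rose with coculture and is not shown, held neither core in its stretch, which lies inside the gene's span in RefSeq. A match is a run of letters, not a measured binding site.

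**Figure D1:**
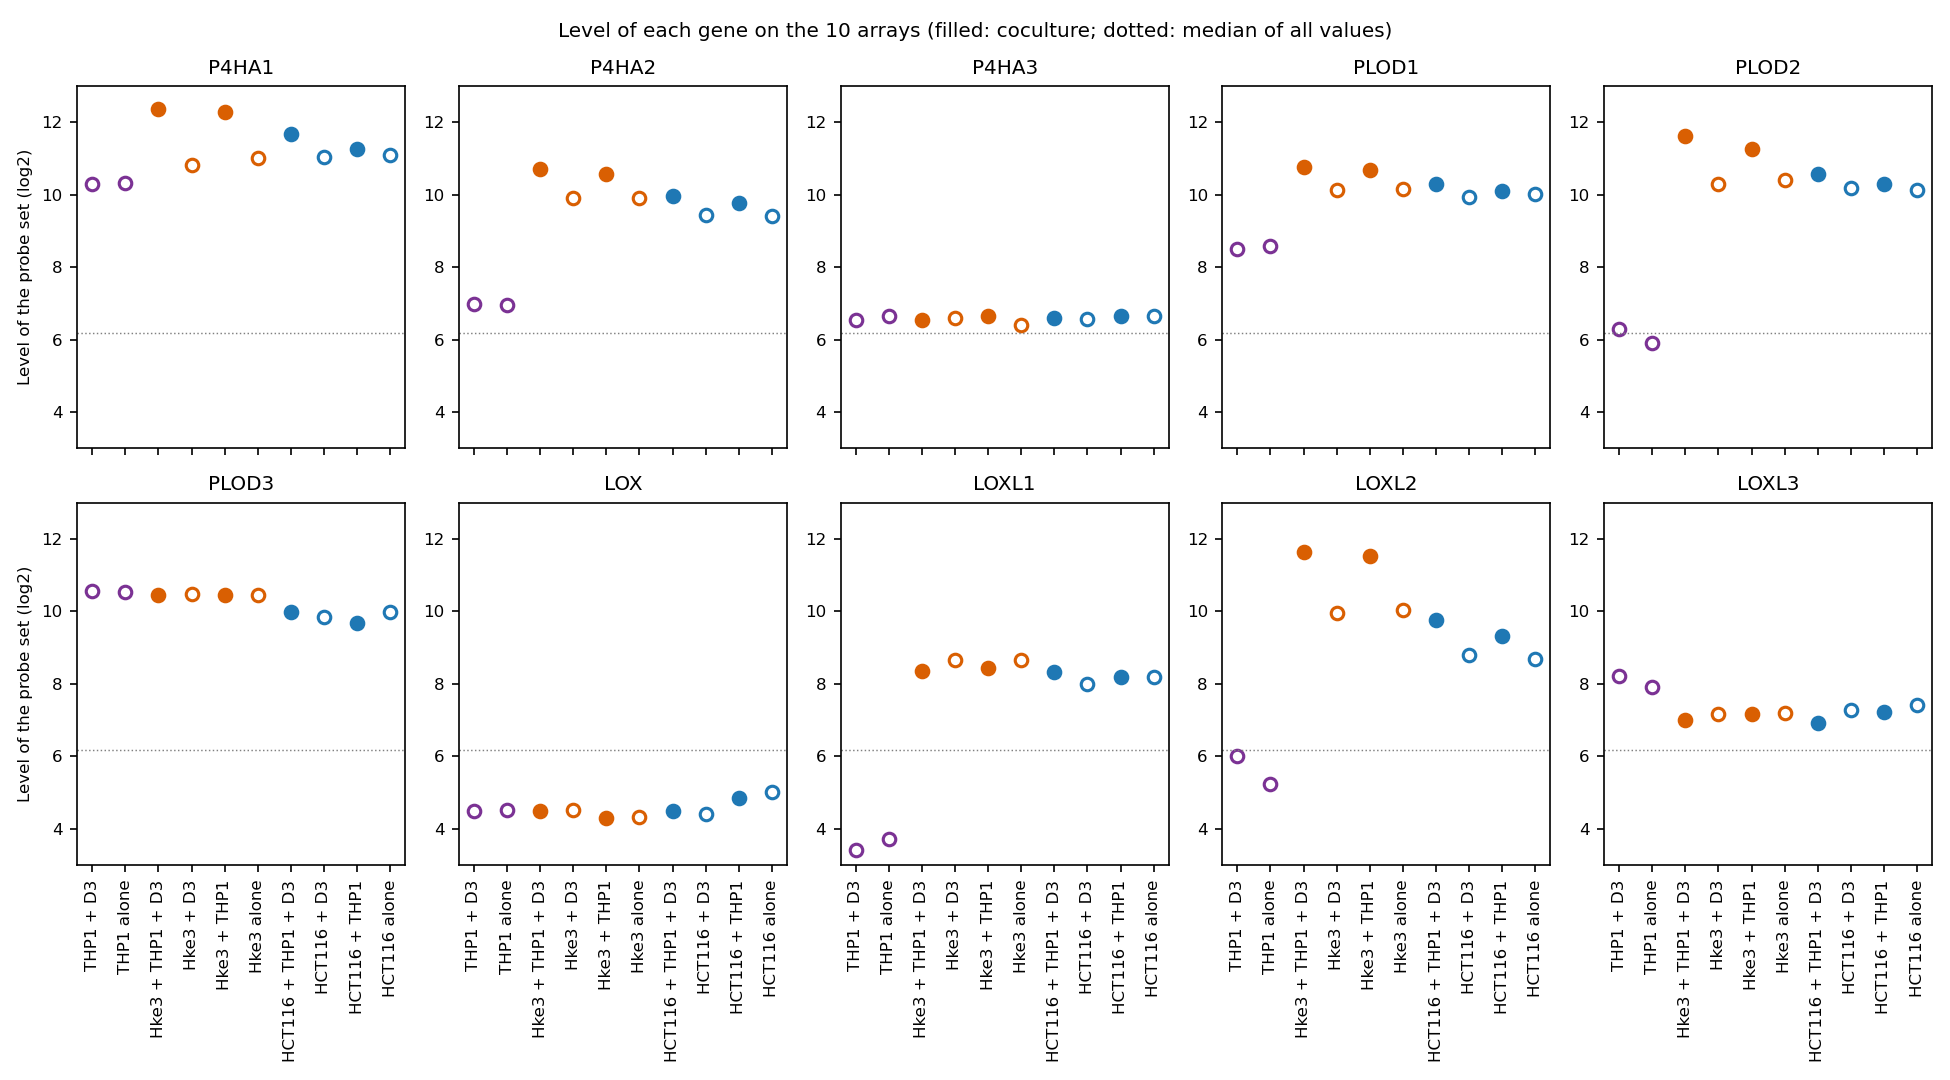
Level of each of the 10 genes (vertical axis, log2 intensity of its probe set) on each of the 10 arrays (horizontal axis). THP1 is purple, Hke3 orange and HCT116 blue, filled points are cocultured cells, and the dotted line is the median of all values, 6.18 log2. In P4HA1, P4HA2, PLOD1, PLOD2 and LOXL2 the filled Hke3 points stand above every other point.

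Coculture with THP1 cells raised 5 of the 9 tested genes across both lines, 2 of them also when arrays were fitted as matched pairs: the prolyl hydroxylases P4HA1 and P4HA2, the lysyl hydroxylases PLOD1 and PLOD2, and the lysyl oxidase LOXL2. None fell past the threshold. The background share was 3.76% of all tested genes raised, with 4.05% lowered and 7.82% called in all. The fits gave 1.88-fold for P4HA1, 1.51-fold for P4HA2, 1.32-fold for PLOD1, 1.60-fold for PLOD2 and 2.29-fold for LOXL2. All 5 were higher with coculture in 4 of 4 pairs, as were 12.9% of all tested genes. The median difference of the 9 tested genes was 0.40 log2 and that of all tested genes -0.02.

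Among the prolyl hydroxylases, P4HA1 stood at 12.35 and 12.27 log2 in cocultured Hke3 with and without vitamin D3, against 10.82 and 11.003 in Hke3 without THP1 cells. In HCT116 it was at 11.68 and 11.27 in coculture, against 11.04 and 11.09 without. Its cocultured arrays lay above the others in each line, and the fit gave 0.91 ± 0.19 log2 (limma adjusted p = 0.0318). P4HA2, the other widely expressed alpha subunit, was at 10.72 and 10.58 log2 in cocultured Hke3, against 9.90 and 9.90 without, and at 9.96 and 9.78 in cocultured HCT116, against 9.44 and 9.41. Again the groups did not overlap within either line, and the difference was 0.60 ± 0.08 log2 (limma adjusted p = 0.0135). P4HA3, the third alpha subunit, stayed close to the median of all values, between 6.40 and 6.66 log2 on the 8 arrays. Its cocultured and other arrays overlapped in both lines, and its difference was 0.06 ± 0.06 log2 (limma adjusted p = 0.626).

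Among the lysyl hydroxylases, PLOD2 was at 11.62 and 11.27 log2 in cocultured Hke3 with and without vitamin D3, against 10.30 and 10.41 in Hke3 without THP1 cells. In HCT116 it was at 10.56 and 10.30 in coculture, against 10.19 and 10.13. The cocultured arrays were the higher ones in each line, by more in Hke3, and the fit over both gave 0.68 ± 0.16 log2 (limma adjusted p = 0.0437). PLOD1 was at 10.76 and 10.68 log2 in cocultured Hke3, against 10.12 and 10.15, and at 10.30 and 10.09 in cocultured HCT116, against 9.93 and 10.03. Its groups did not overlap in either line, although in HCT116 without vitamin D3 the gap was only 0.07 log2, and the fit gave 0.40 ± 0.09 log2 (limma adjusted p = 0.0356). PLOD3 was at 10.46 and 10.45 log2 in cocultured Hke3, against 10.47 and 10.45, and at 9.98 and 9.67 in cocultured HCT116, against 9.85 and 9.99. The PLOD3 groups overlapped, with a difference of -0.05 ± 0.08 log2 (limma adjusted p = 0.736).

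Among the lysyl oxidases, LOXL2 had the largest coculture difference of the 10 genes and ranked at position 7 among all raised differences by size. It was at 11.65 and 11.52 log2 in cocultured Hke3 with and without vitamin D3, against 9.97 and 10.03, and at 9.75 and 9.33 in cocultured HCT116, against 8.80 and 8.69. The groups were well apart in both lines, and the difference was 1.19 ± 0.16 log2 (limma adjusted p = 0.0135). LOXL1, which is known for its part in elastic fibres, was at 8.36 and 8.44 log2 in cocultured Hke3, against 8.67 and 8.65, and at 8.31 and 8.18 in cocultured HCT116, against 7.99 and 8.19. Its cocultured arrays were the lower ones in Hke3 and overlapped the others in HCT116, and the fit gave -0.05 ± 0.10 log2 (limma adjusted p = 0.775). LOXL3, a relative of LOXL2 with the same scavenger receptor domains, was lower with coculture in 4 of 4 pairs, as were 17.7% of all tested genes. Its levels were 7.01 and 7.16 log2 in cocultured Hke3, against 7.16 and 7.19, and 6.92 and 7.22 in cocultured HCT116, against 7.27 and 7.41, and its difference of -0.18 ± 0.07 log2 did not pass (limma adjusted p = 0.133). LOX, the founding member of the family, lay between 4.30 and 5.02 log2 on the colon cancer arrays on its brightest probe set, and was not tested.

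The calls were not equally firm. LOXL2 passed under all 17 alternatives tried and P4HA2 under 16 of 17, while P4HA1 passed under 8 of 16, PLOD1 under 9 of 16 and PLOD2 under 7 of 17, always with the same sign. With the 4 coculture pairs fitted as blocks of cell line and vitamin D3, LOXL2 and P4HA2 (limma adjusted p = 0.0409) passed, and P4HA1 (0.0669), PLOD1 (0.0766) and PLOD2 (0.0854) did not. Dropping single arrays of HCT116 changed the count of 5 to 1 (vitamin D3), 2 (coculture plus vitamin D3) or 4 (alone), and left it at 5 for coculture without vitamin D3. Dropping any 1 of the 4 Hke3 arrays left 2, LOXL2 and P4HA2. The sizes moved with the rule for probe sets: with all probe sets averaged per gene, dim ones included, the difference of LOXL2 was 0.47 log2, that of P4HA1 0.44 and that of P4HA2 0.30 over both lines, and 0.65, 0.67 and 0.34 in Hke3. The count was 5 with the vitamin D3 labels left out of the model.

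**Figure D2:**
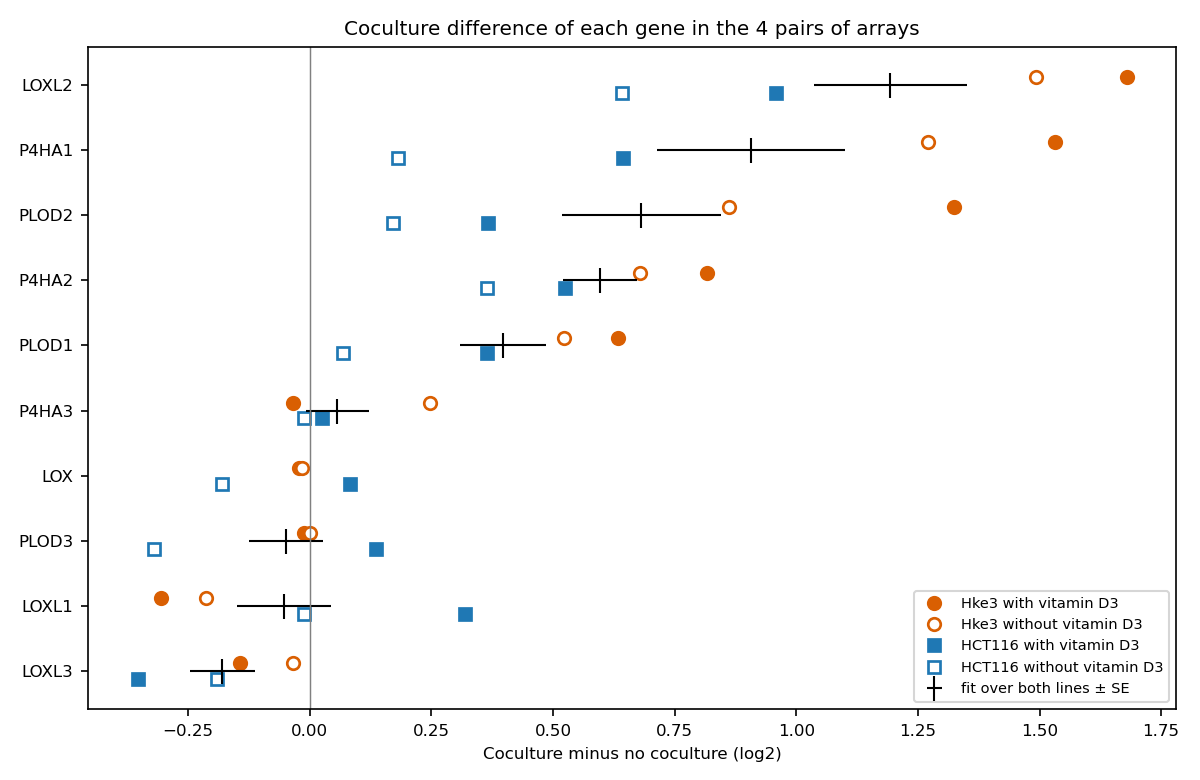
Coculture difference of each gene (horizontal axis, log2, coculture minus no coculture) in the 4 pairs of arrays, ordered by the mean of the pairs. Orange circles are Hke3 and blue squares HCT116, filled with vitamin D3, and the black bars are the fit over both lines ± SE, which LOX lacks. For LOXL2, P4HA1, PLOD2, P4HA2 and PLOD1 all 4 points lie right of 0, with both Hke3 points to the right of both HCT116 points.

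The coculture difference was larger in Hke3 than in HCT116 for P4HA1, PLOD2 and LOXL2, by the test of the difference between the lines. These were 3 of the 9 tested genes, all with the larger value in Hke3, as in 1.87% of all tested genes (2.34% had the smaller value there, 4.21% either). P4HA1 gained 1.40 ± 0.13 log2 in Hke3, against a difference of 0.41 ± 0.13 in HCT116 (interaction 0.99 ± 0.18, limma adjusted p = 0.0302). For PLOD2 the Hke3 rise was 1.09 ± 0.11 log2, against 0.27 ± 0.11 in HCT116 (interaction 0.82 ± 0.16, limma adjusted p = 0.0329). LOXL2 rose by 1.59 ± 0.11 log2 in Hke3, against 0.80 ± 0.11 in HCT116 (interaction 0.79 ± 0.15, limma adjusted p = 0.0368). P4HA2 (0.75 ± 0.07 in Hke3 and 0.44 ± 0.07 in HCT116) and PLOD1 (0.58 ± 0.08 and 0.22 ± 0.08) leaned the same way, and their interactions of 0.30 ± 0.10 and 0.36 ± 0.12 log2 did not pass (limma adjusted p = 0.144 and 0.135). LOXL1 had the opposite lean, -0.26 ± 0.09 log2 in Hke3 and 0.15 ± 0.09 in HCT116, and its interaction of -0.41 ± 0.12 did not pass either (limma adjusted p = 0.109). P4HA3, PLOD3 and LOXL3 had interactions of 0.10, 0.09 and 0.18 log2, none past the threshold.

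Taken line by line in the same model, all 5 raised genes passed in Hke3, where 4.09% of all tested genes were raised and 3.06% lowered (7.14% called). In fold terms the Hke3 rises were 3.003 for LOXL2, 2.64 for P4HA1, 2.13 for PLOD2, 1.68 for P4HA2 and 1.49 for PLOD1. In HCT116, 7.66% of all tested genes were raised and 8.31% lowered (16% called). There LOXL2 (1.74-fold, limma adjusted p = 0.0065) and P4HA2 (1.36-fold, limma adjusted p = 0.0107) passed. P4HA1 (1.33-fold, limma adjusted p = 0.069), PLOD1 (1.16-fold, limma adjusted p = 0.126) and PLOD2 (1.21-fold, limma adjusted p = 0.141) did not. In both lines the cocultured arrays of these 5 genes lay above the other arrays of that line, which held for 26% of all tested genes in Hke3 and 25.3% in HCT116. The 5 rises in Hke3 passed with the 4 Hke3 arrays fitted on their own. PLOD1 lost its Hke3 call when the array of Hke3 alone (limma adjusted p = 0.0654), the vitamin D3 array (0.102) or the array with both (0.0824) was dropped.

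The interaction calls were fragile. Of the 3, LOXL2 and P4HA1 passed when the HCT116 array with coculture plus vitamin D3 was dropped, and PLOD2 when the array of Hke3 alone or of cocultured Hke3 without vitamin D3 was dropped. None passed when any of the other 5 colon cancer arrays was dropped. In HCT116 the count of 2 became 0 after dropping either of its vitamin D3 arrays, 1 after dropping HCT116 alone and 3 after dropping coculture without vitamin D3.

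**Figure D3:**
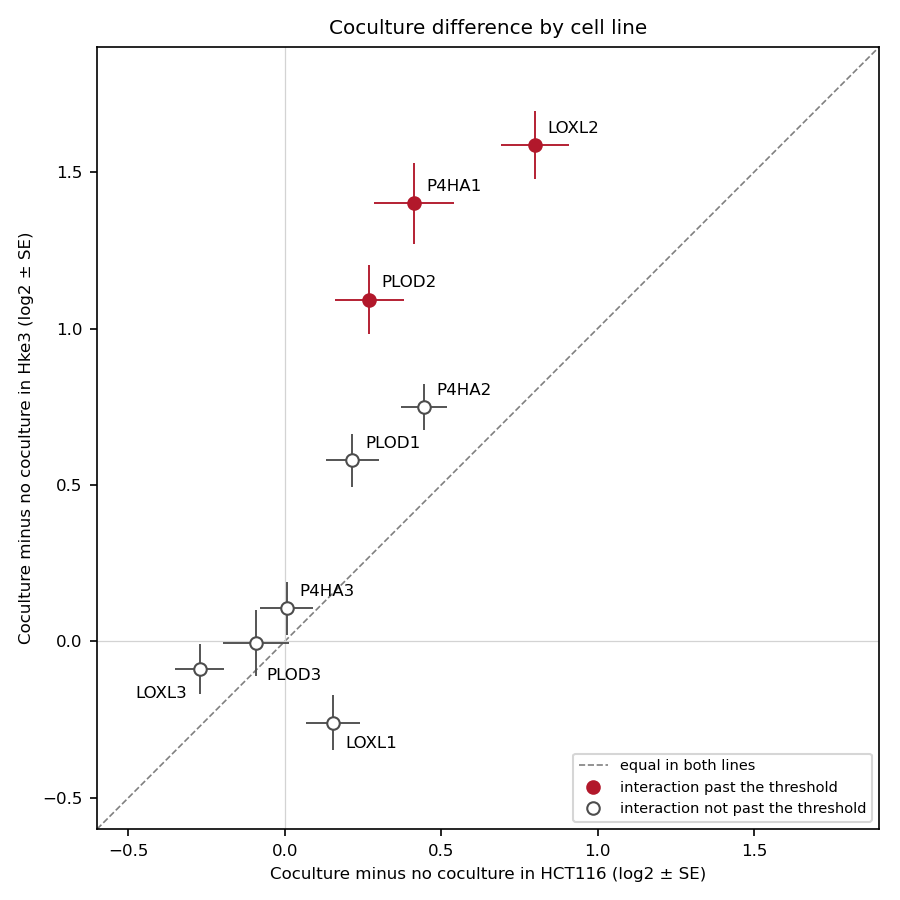
Coculture difference in Hke3 (vertical axis, log2 ± SE) against that in HCT116 (horizontal axis, log2 ± SE) for the 9 tested genes. Red points passed the interaction test, open points did not, and the dashed line marks equal differences in both lines. The red points, LOXL2, P4HA1 and PLOD2, stand above the line, as do all open points except LOXL1, which lies below it.

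Other measures moved with these differences. The RNA quality measure, ACTB 3' minus 5', fell in all 4 coculture pairs, by 0.16 and 0.33 log2 in Hke3 with and without vitamin D3 and by 0.02 and 0.13 in HCT116, and its part in the coculture differences was not tested. Of the macrophage markers, 1 of 6 tested, the MHC class II gene HLA-DRA, rose with coculture, beside 3.76% of all tested genes raised. HLA-DRA lay near the median of all values, between 5.42 and 6.64 log2 on the colon cancer arrays. The summed log2 level of the 14 macrophage markers measured was 78.5 to 80.4 in cocultured colon cancer cells and 77.9 to 79.5 in those without THP1 cells. In THP1 with vitamin D3 and alone it was 161 and 156. SRGN, a granule proteoglycan of blood cells, was at 6.28 log2 in cocultured Hke3 with vitamin D3 and at 3.93 to 4.90 on the other colon cancer arrays. The 5 raised enzymes each had lower levels in both THP1 arrays than on all 8 colon cancer arrays, as did 36% of all genes tested with THP1. In a bulk sample, more cells with a transcript and more transcript per cell cannot be told apart.

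**Figure D4:**
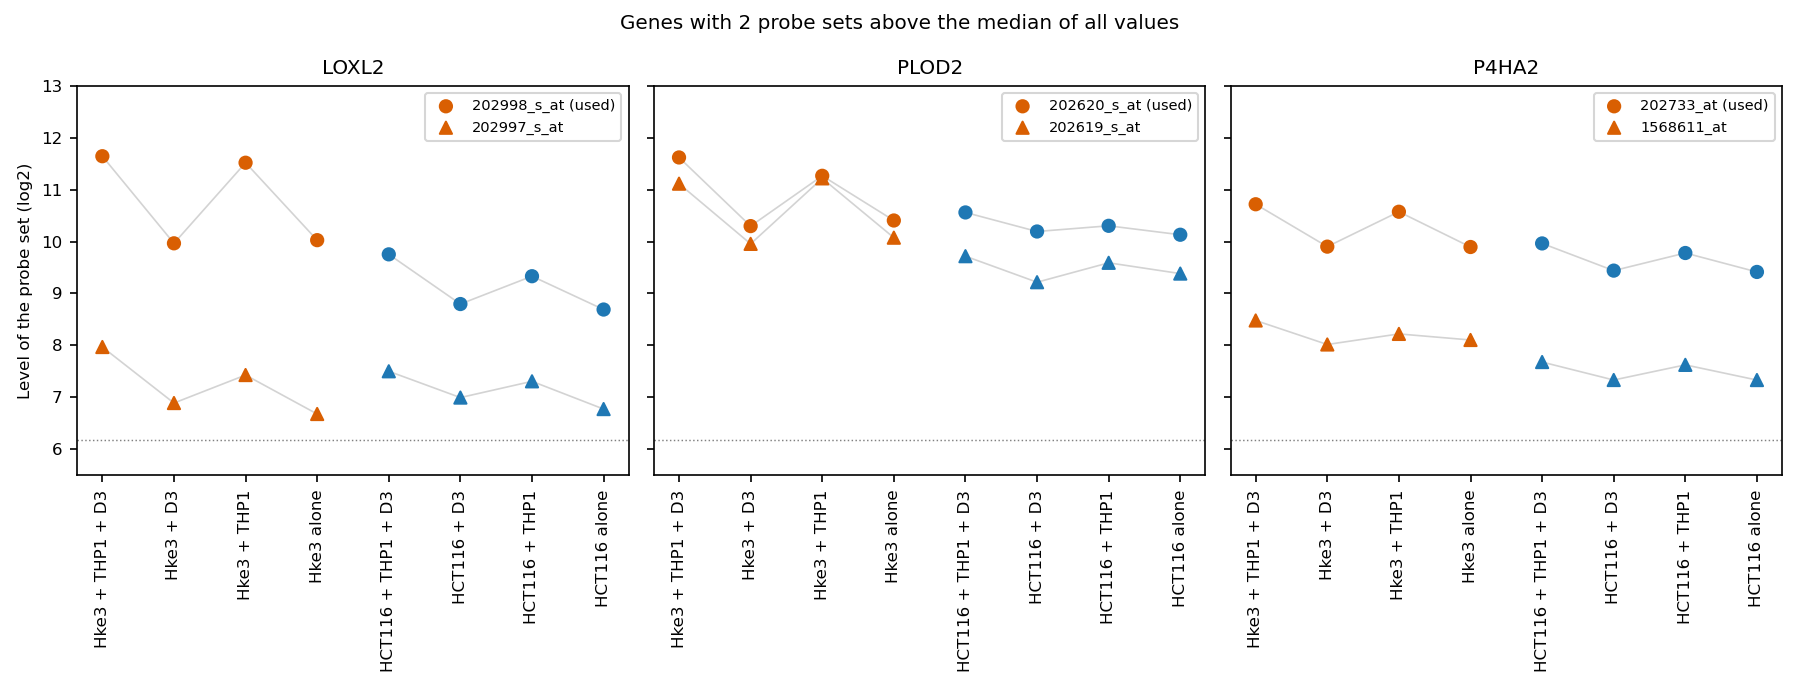
Levels (vertical axis, log2) of both probe sets above the median of all values for LOXL2, PLOD2 and P4HA2 on the 8 colon cancer arrays (horizontal axis), with Hke3 in orange and HCT116 in blue. Circles are the probe set used and triangles the second one, and the dotted line is the median of all values. Both probe sets are higher on the cocultured arrays, and the second LOXL2 probe set does not show the gap between the lines.

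A second probe set above the median was present for 3 of the 5 raised genes, and it was higher with coculture in each. For LOXL2 the second probe set read 7.97 and 7.43 log2 in cocultured Hke3, against 6.89 and 6.68, and 7.50 and 7.31 in cocultured HCT116, against 6.99 and 6.77. Its coculture difference of 0.72 log2 passed (limma adjusted p = 0.0176), and its interaction of 0.39 log2 did not (limma adjusted p = 0.168). The second PLOD2 probe set gave 0.75 log2 for coculture (limma adjusted p = 0.0338) and 0.80 for the interaction (limma adjusted p = 0.0222). The second P4HA2 probe set gave 0.30 log2 for coculture (limma adjusted p = 0.0449) and -0.03 for the interaction. On it P4HA2 passed in neither line, at 0.29 log2 in Hke3 (limma adjusted p = 0.107) and 0.32 in HCT116 (limma adjusted p = 0.0696). These fits run over all probe sets with 1 symbol, where the PLOD2 probe set used above had an adjusted p of 0.0531. The remaining probe sets of the 5 genes lay under 6.18 log2 on all colon cancer arrays, and PLOD1 has only 1.

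Hke3 had higher levels than HCT116 for 6 of the 9 tested genes over all conditions, and lower levels past the threshold for none. This was P4HA2, PLOD1, PLOD2, PLOD3, LOXL1 and LOXL2, beside 24.8% of all tested genes higher in Hke3 and 40.5% called in either direction. On the probe sets used, the 6 were higher in 4 of 4 pairs, as were 30.8% of all tested genes. For LOXL2 this did not hold on its second probe set, as given below. PLOD3, which coculture did not move past the threshold, was at 10.45 to 10.47 log2 on all 4 Hke3 arrays and at 9.67 to 9.99 in HCT116, without overlap (0.59 ± 0.08 log2, limma adjusted p = 0.000699). P4HA2 was higher by 0.62 ± 0.08 log2 (limma adjusted p = 0.000503), LOXL1 by 0.36 ± 0.10 (0.0189), PLOD1 by 0.34 ± 0.09 (0.0163) and PLOD2 by 0.60 ± 0.16 (0.0197). LOXL1 lost its call when the array of HCT116 alone, Hke3 alone or vitamin D3 in Hke3 was dropped (limma adjusted p = 0.052, 0.0625 and 0.0598), PLOD1 when a cocultured Hke3 array was dropped (0.052 with vitamin D3, 0.0555 without), and PLOD2 when a cocultured HCT116 array (0.0609 and 0.0592) or cocultured Hke3 without vitamin D3 (0.0608) was dropped.

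P4HA1 showed no such line difference without THP1 cells. Its level in Hke3 was below that in HCT116 by 0.21 and 0.08 log2 with and without vitamin D3 when cultured without THP1 cells, and higher in Hke3 by 0.67 and 1.004 in coculture. Its average line difference was 0.34 ± 0.19 log2 (limma adjusted p = 0.189), and the test of the change between culture conditions is the interaction given above. PLOD2 differed between the lines by 0.10 and 0.27 log2 without THP1 cells and by 1.06 and 0.96 in coculture. LOXL2 was 1.65 ± 0.16 log2 higher in Hke3 on the probe set used (limma adjusted p = 0.000162). On its second probe set the average difference was 0.10 log2 (limma adjusted p = 0.468). Without THP1 cells the second probe set was lower in Hke3, at 6.89 and 6.68 log2 with and without vitamin D3, against 6.99 and 6.77 in HCT116. The LOXL2 line difference thus depends on the probe set in size and, without THP1 cells, in direction. LOXL3 and P4HA3 had line differences of -0.08 ± 0.07 and -0.07 ± 0.06 log2, which did not pass. The ACTB 3' minus 5' difference also differed between the lines, by 0.33 to 0.65 log2 in the 4 pairs, and its part in these values was not tested.

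By the labels, vitamin D3 moved none of the 9 tested genes past the threshold, and limma called 0 of all 13243 tested genes (background share 0%). Of the 9, 1 had an unadjusted p under 0.05, as had 375 of all tested genes. This fit averages the pairs without coculture, where CYP24A1 rose (1.45 log2 in Hke3 and 1.44 in HCT116), with the cocultured ones, where it fell (-1.36 and -0.98). With the coculture labels in doubt, it cannot decide whether vitamin D3 moved these genes. Counts over 4 pairs carry the same doubt. The largest average differences were those of LOXL3 (-0.15 ± 0.07 log2, lower in 4 of 4 pairs, as were 8.63% of all tested genes), LOXL2 (0.15 ± 0.16) and PLOD2 (0.14 ± 0.16). P4HA2 was above its pair in 4 of 4, as were 4.57% of all tested genes, by 0.09 ± 0.08 log2. In the arrays labelled as coculture with vitamin D3, all 5 genes raised by coculture were above the coculture array without it in both lines, by 0.08 log2 (P4HA1 and PLOD1) to 0.35 (PLOD2) in Hke3 and by 0.18 (P4HA2) to 0.42 (LOXL2) in HCT116. Of all tested genes, 56.1% were higher in that Hke3 pair, 51.5% in that HCT116 pair and 33.8% in both. Without THP1 cells 1 of these 5 was higher with vitamin D3 in Hke3 and 3 of 5 in HCT116, beside 43.6% and 34.8% of all tested genes. The coculture by vitamin D3 interaction passed for none of them, and for none of all tested genes, with P4HA1 at 0.36 ± 0.40 log2, PLOD2 at 0.33 ± 0.33 and LOXL2 at 0.25 ± 0.33, and the CYP24A1 levels above put the labels of this division in doubt. In THP1, where 1 array a condition allows no test, LOXL2 was at 6.002 log2 with vitamin D3 and 5.23 alone, both under the median of all values. PLOD2 was at 6.31 and 5.92 log2, LOXL3 at 8.22 and 7.91, and LOXL1 at 3.41 and 3.73 in THP1 with vitamin D3 and alone.

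The THP1 arrays had a different set of these enzymes from the colon cancer arrays. The THP1 cells were grown in RPMI and the colon cancer cells in MEM, so cell type and medium cannot be told apart here. With vitamin D3 and alone, THP1 had P4HA2 at 6.98 and 6.94 log2, against 9.41 to 10.72 in the colon cancer cells, and PLOD1 at 8.51 and 8.58, against 9.93 to 10.76. PLOD2 at 6.31 and 5.92 log2, LOXL2 at 6.002 and 5.23 and LOXL1 at 3.41 and 3.73 were near or under the median of all values in THP1, against at least 10.13, 8.69 and 7.99 in the colon cancer cells. P4HA1 was closer, at 10.30 and 10.31 log2 in THP1, against 10.82 to 12.35. LOXL3, at 8.22 and 7.91 log2 in THP1, against 6.92 to 7.41, and PLOD3, at 10.56 and 10.52, against 9.67 to 10.47, were the ones higher in THP1. LOX was at 4.48 and 4.52 log2 in THP1 and P4HA3 at 6.55 and 6.66, both within or near their colon cancer ranges.

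In the fit over all 10 arrays, THP1 minus the mean of both colon cancer lines without coculture, 6 of the 9 tested genes were lower in THP1 and 2 higher. That is beside 40.2% of all tested genes lower, 28.1% higher and 68.3% called, so calls were common in this comparison. The differences were -2.70 ± 0.09 log2 for P4HA2 (limma adjusted p = 1e-08), -1.52 ± 0.11 for PLOD1 (1.55e-06), 0.81 ± 0.12 for LOXL3 (0.000213) and 0.35 ± 0.09 for PLOD3 (0.00763). For LOXL1 (-4.81 log2), PLOD2 (-4.14) and LOXL2 (-3.75) the THP1 level lay near or under the median of all values and the size is approximate. The second LOXL2 probe set gave -0.47 log2 (limma adjusted p = 0.0199). P4HA1 differed by -0.68 ± 0.23 log2 (limma adjusted p = 0.0262), and lost its call when the array of THP1 alone (0.081), THP1 with vitamin D3 (0.114), HCT116 alone (0.0697) or vitamin D3 in HCT116 (0.0708) was dropped, and with cyclic loess normalisation (0.0732).

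**Figure D5:**
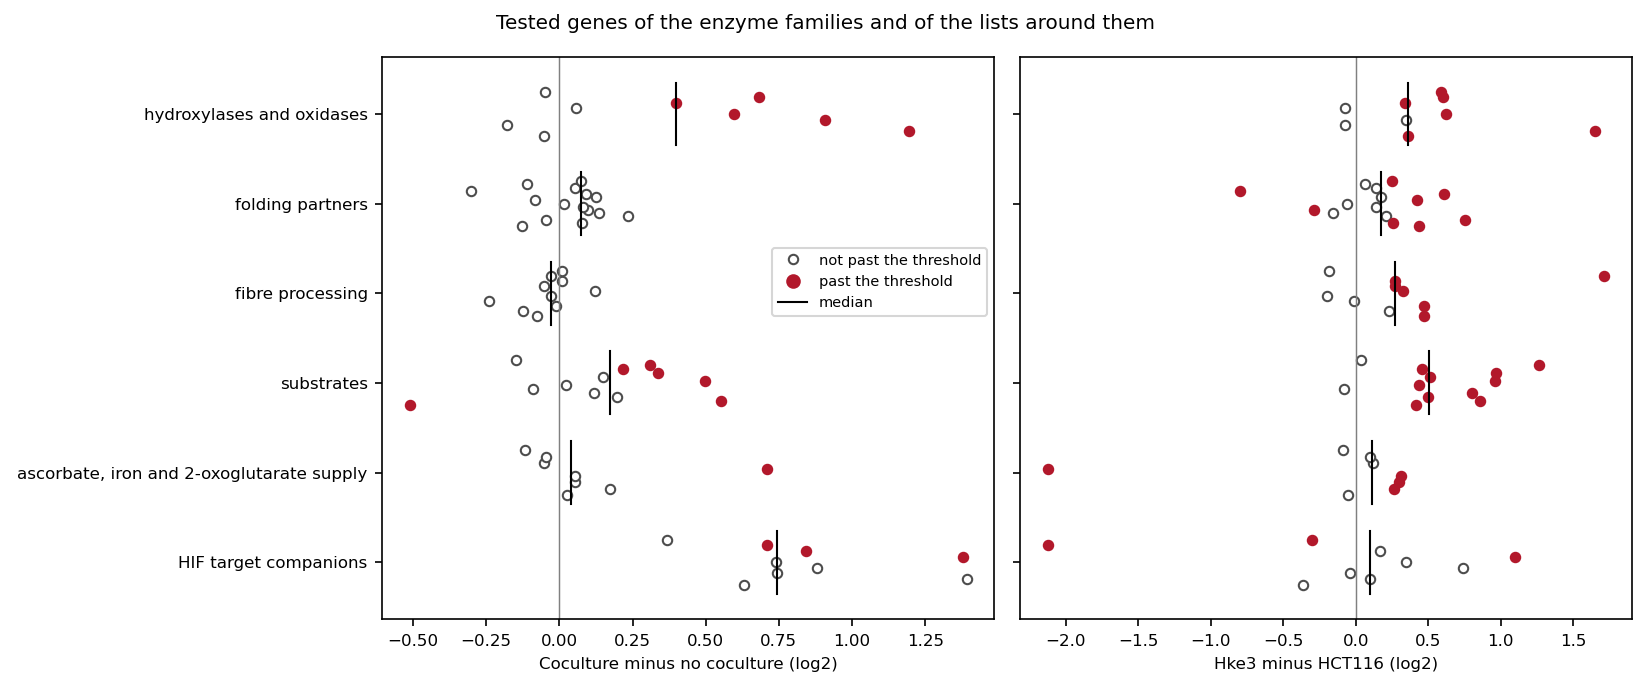
Coculture minus no coculture (left, log2) and Hke3 minus HCT116 (right, log2) for each tested gene of the 3 enzyme families and of 5 lists around them. Red points passed the threshold, open points did not, and the black bars are medians over the tested genes of a list. The enzymes have 5 red points to the right of 0 at left, and the folding partners none.

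Of 15 tested folding partners, among them the shared prolyl hydroxylase subunit P4HB, the collagen chaperone SERPINH1 and the prolyl 3-hydroxylases, none passed for coculture over both lines, and their median was 0.07 log2. Within HCT116, FKBP14 (0.38 ± 0.10 log2) and KLHL12 (0.28 ± 0.07) rose and SEC13 (-0.27 ± 0.06) fell, beside 7.66% of all tested genes raised and 8.31% lowered. In Hke3 PDIA3 fell, beside 3.06% of all tested genes lowered. PDIA3, a general disulphide isomerase, was the 1 with an interaction past the threshold, which 4.21% of all tested genes had. It was at 11.26 and 11.29 log2 in cocultured Hke3 with and without vitamin D3, against 12.07 and 11.86, and at 12.45 and 12.47 in cocultured HCT116, against 12.32 and 12.43 (interaction -0.77 ± 0.12, limma adjusted p = 0.0204). Of 10 tested fibre processing genes none passed for coculture. The small leucine-rich proteoglycan DCN at -0.24 ± 0.08 log2 (limma adjusted p = 0.11) and the fifth oxidase LOXL4 at 0.12 ± 0.09 (limma adjusted p = 0.404) came nearest, and for the interaction the procollagen peptidase ADAMTS2 at 0.48 ± 0.16 (limma adjusted p = 0.127) and LOXL4 at 0.35 ± 0.12 (limma adjusted p = 0.139) did. Between the lines, 6 of 15 folding partners were higher in Hke3 and 2 lower, and 6 of 10 fibre processing genes were higher and none lower, beside 24.8% of all tested genes higher and 15.7% lower.

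Of 12 tested collagen and matrix substrate genes, 5 rose with coculture and 1 fell, beside 3.76% of all tested genes raised and 4.05% lowered. COL6A2 rose by 0.34 ± 0.05 log2 (limma adjusted p = 0.0159), COL4A5, a basement membrane chain, by 0.50 ± 0.10 (0.0272), COL13A1, a transmembrane collagen, by 0.55 ± 0.12 (0.0338), COL7A1, the anchoring fibril collagen, by 0.22 ± 0.05 (0.0391) and COL9A3 by 0.31 ± 0.07 (0.0447). COL12A1, a fibril-associated collagen, fell by 0.51 on the log2 scale (SE 0.07, limma adjusted p = 0.0135). None of the 12 had an interaction past the threshold. The list's median was 0.17 log2 over both lines, against -0.02 for all tested genes. Taken line by line, 5 were called higher and 1 lower in HCT116 (median 0.25 log2), beside 7.66% and 8.31% of all tested genes. In Hke3, 1 was called higher and 1 lower (median 0.17 log2), beside 4.09% and 3.06%. Of the fibrillar chains typical of fibroblasts, COL1A1 lay between 8.20 and 8.43 log2 in the colon cancer cells, COL1A2 between 5.04 and 5.48 and COL3A1 between 4.73 and 5.37. In THP1 with vitamin D3 and alone COL1A1 was at 8.28 and 8.41 log2, so its level did not set the cell types apart. COL1A1 had a coculture difference of -0.09 ± 0.05 log2, which did not pass (limma adjusted p = 0.341). Hke3 was higher than HCT116 for 10 of the 12 and lower for none, beside 24.8% of all tested genes higher and 15.7% lower.

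Of 8 tested genes for the supply of ascorbate, iron and 2-oxoglutarate, 1 rose with coculture, the glucose and dehydroascorbate transporter SLC2A1 (0.71 ± 0.16 log2, limma adjusted p = 0.038). SLC2A1 is also a HIF target, and among 9 tested HIF target genes NDRG1 (1.38 ± 0.20 log2) and the pyruvate dehydrogenase kinase PDK1 (0.84 ± 0.21) rose with it. Of all tested genes, 3.76% were raised. The HIF targets had a median coculture difference of 1.40 log2 in Hke3 and 0.32 in HCT116. In Hke3 8 of 9 were raised past the threshold, beside 4.09% of all tested genes. In HCT116 2 of 9, NDRG1 and VEGFA, were raised, beside 7.66% of all tested genes (16% called in either direction). The growth factor gene VEGFA leaned the other way from the rest of those named, at 0.18 ± 0.11 log2 in Hke3 (limma adjusted p = 0.361) and 0.55 ± 0.11 in HCT116 (limma adjusted p = 0.0192), and its interaction of -0.37 ± 0.16 did not pass (limma adjusted p = 0.229). The interaction passed for 6 of the 9 HIF targets, with the larger value in Hke3, as in 1.87% of all tested genes. These were ANKRD37 (2.12 ± 0.27 log2), the histone demethylase KDM3A (1.32 ± 0.16), the mitophagy receptor BNIP3 (1.31 ± 0.18), the HIF prolyl hydroxylase EGLN3 (1.40 ± 0.21), the peptide hormone gene ADM (1.08 ± 0.18) and PDK1 (1.05 ± 0.20). These lists were chosen with earlier results of these data known, so they are no independent evidence of a direction. The alternatives tried for the enzymes were not read for the list genes, so how firm the list calls are was not tested.

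The genes whose profile over the 8 colon cancer arrays was nearest to a raised enzyme were found by the root mean square difference in log2 after each gene's own mean was taken off. Nearest to P4HA1, which varied by 0.56 log2 about its mean, were SPAG4 (0.07), PDK1 (0.11) and LRP2BP (0.12). Nearest to PLOD2 (0.51) were the semaphorin SEMA4B (0.10), the transcription repressor BHLHE40 (0.10) and PPP1R3B (0.12), and nearest to LOXL2 (1.04) were CLIC3 (0.24), the glycolytic enolase ENO2 (0.25) and NDRG1 (0.31). Nearest to P4HA2 (0.44) were the cell cycle inhibitor CDKN1C (0.05), PTPRH (0.09) and CCNG2 (0.10), and nearest to PLOD1 (0.28) were CIB1, ANKZF1 and KRT19 (0.05 each). These are descriptions over 8 arrays that share 2 cell lines and carry no test.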

How the data were processed

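The deposited table holds log2 values for each probe set. They are RMA values from affy, per the submitters' processing notes, so background correction, quantile normalisation and probe summary were done before deposit; versions, and whether the 10 arrays were normalised together, are not given in the sources used here. Values ran from 2.98 to 15.2 and array medians from 6.15 to 6.21. There are no read counts behind an array; precision depends on the number of arrays. Of 54675 probe sets, 41097 had 1 symbol in the platform annotation, 1801 several and 11777 none; the last 2 kinds were left out.

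Arrays were grouped by title. The models (limma 3.58.1, R 4.3.3) had additive terms for line, coculture and vitamin D3, interactions added 1 at a time, and a term for THP1 in the fit over all 10 arrays (13879 genes). Tests were two-sided with Benjamini-Hochberg adjustment over all genes fitted. Nothing says that arrays came from separate cultures, so p-values measure the spread between these arrays only.

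All 10 genes are named. Genes of the 5 lists are named where they passed for coculture or its interaction with cell line, at most the 6 with the smallest p, otherwise the 2 with the smallest p, and 3 nearest genes are given for each raised enzyme. COL1A1, COL1A2, COL3A1, SEC13, KLHL12, FKBP14, VEGFA, EPCAM, KRT20, VIL1, HLA-DRA, P4HB and SERPINH1, were named outside this rule after their values were seen. The genes, lists and tests were chosen with earlier results of these data known. Alternatives were the filter on dim genes, the probe set rule, the normalisation, the variance estimate, the covariates and leaving out each array. Plots used matplotlib 3.10.9 (Python 3.11.15).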

Additional observations from a re-analysis of the deposited data

Results flagged for a closer look

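The coculture difference differed between the lines, by the interaction test, for 3 enzymes. The interaction, Hke3 minus HCT116, was 0.99 log2 for P4HA1, 0.82 for PLOD2 and 0.79 for LOXL2, and in each the difference was above 0 in both pairs of both lines. No group held 4 or more arrays of 1 condition, so no array was compared with others of its own group.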

How the results depend on the processing

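The labels give no replicate numbers to pair by, and arrays were paired only by matched condition, as a block of cell line and vitamin D3. The 29 differences of the enzymes past the threshold were recomputed 478 times in all. Of these, 402 kept their direction and their side of the threshold, 76 kept the direction without passing, and none reversed. Of 499 recomputed values that had not passed, 34 changed sign.

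The coculture count of 5 enzymes was 3 with trend and robust fitting and 2 (LOXL2 and P4HA2) with that block, and 1 to 5 when each array was left out. The interaction count of 3 was 0 without a filter on dim genes, 1 with probe sets averaged per gene and 0 to 2 when each array was left out. The count of 2 in HCT116 was 4 with probe sets averaged per gene (LOXL2, P4HA2 and PLOD2 higher, LOXL3 lower) and 0 to 3 when each array was left out. In these cases the cause was not tested, except that leaving out an array leaves fewer residual degrees of freedom. The counts were 4 to 5 in Hke3, 4 to 6 between the lines, 7 to 8 for THP1 against the colon cancer cells when each array was left out, and 0 for vitamin D3 throughout. No scaling moved the median of all genes by over 0.1 log2.

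Among all genes tested, the share called for coculture, 7.82% in the report, was 3.32% without a filter, 14.2% when genes had to exceed 8.14 log2, the 75th percentile, 1.96% with the block and 0.294% to 3.28% when each array was left out. The interaction share, 4.21% in the report, was 1.4% without a filter and 11.4% with the stricter one, 8.83% with trend and robust fitting and 0.763% to 2.13% when each array was left out.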
